A study of Homo sapiens with 4 samples.

Results

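Chromosome 20 is one of the smaller human chromosomes, and the genes studied here are all those of the deposited expression table whose first exon is placed on it, ordered by their smallest start coordinate. The table lists 1039 such genes of 39259 in all. Changes were measured for the 348 of them with a mean of at least 1 FPKM (fragments per kilobase of gene and per 1000000 assigned fragments) over the 4 libraries, of 11716 genes in the whole table. The chromosome was proposed with its changes between the groups already known, so the values along it are a description, and no test of the chromosome as a whole is given. Just inside the filter lay MIR646 with a mean of 1.05 FPKM, LINC01273 with 1.07 and LOC105372497 with 1.07. Just outside it lay LZTS3 with 0.969, DZANK1 with 0.963 and RALY-AS1 with 0.935. Of the 691 genes below it, 328 had no fragment in any library.

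The libraries came from MDA-MB-231, an established cell line of triple-negative breast cancer, grown in DMEM/F-12 medium with serum and with no treatment named. Of the 4 libraries, 2 were made from the wild-type line (WT) and 2 from cells that the labels give as a KO, or knockout, of mdig (MINA53), an oxygenase of the JmjC family that acts on a ribosomal protein and has been studied in histone methylation. Nothing in the labels says how the knockout was made, whether it is 1 clone, or whether the libraries of a group came from separate cultures, so any p-value covers the spread between libraries alone. The comparison was of the expression profiles of both kinds of cells.

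Genes of related function often sit side by side on chromosome 20. Its short arm carries JAG1, the Notch ligand, and PCNA, the sliding clamp of DNA replication, and near the centromere lies the cluster of type 2 cystatins, secreted inhibitors of cysteine proteases. The long arm carries the protease inhibitors of the WFDC family, the imprinted GNAS locus, and a string of genes, AURKA and ZNF217 among them, that are often gained together in breast tumours.

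The fragments assigned to genes numbered 45173267 and 22503981 in the WT libraries and 48768932 and 52163811 in those labelled KO. RIOX2, the gene of mdig, on chromosome 3, stood at 8.60 and 8.24 FPKM in the WT libraries and at 9.23 and 9.82 FPKM in the libraries labelled KO. The difference of 0.16 on the log2(FPKM + 1) scale had a limma adjusted p of 0.0546. It was higher in all 14 alternatives and past the threshold in 6 of them, with adjusted p from 0.0131 without WT replicate 1 to 1 with no filter. The RNA level therefore does not check the label. The markers of the line fitted its name in that VIM reached 1999.6 to 2394 FPKM, while ESR1 and PGR were at or near 0. KRT19, listed as low for the line, was at 89.7 to 137.5 FPKM and CDH1 at 0.128 to 0.625 FPKM, both higher in the libraries labelled KO. ERBB2 and EPCAM, also listed as low, were at 12.7 to 14.3 FPKM and at 1.87 to 2.65 FPKM. Among the 10 markers of other cells, 7 did not exceed 0.358 FPKM in any library, CD3E and PTPRC of leukocytes, COL1A2 and ALB among them. The other 3 were higher in the libraries labelled KO, PECAM1 at 0.970 and 0.985 FPKM against 1.36 and 1.37, COL1A1 at 1.86 and 2.09 FPKM against 3.01 and 2.696, and ACTA2 at 0.980 and 0.614 FPKM against 1.08 and 1.198. Their part in the results was not tested.

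The sequences shown are promoter windows of the gene that lay farthest above its neighbours. This gene, PMEPA1, encodes a membrane protein that is induced by TGF-beta and dampens that pathway by holding back the SMAD factors. RefSeq places 4 starts of it in the promoter table for GRCh38.p14, all on the minus strand, and at 2 of them the bases before the start hold CAGAC, the core of the SMAD binding element, on the printed strand. The letters stand in capitals, 115 bases before the start in the first window, chr20:57710590-57710827, and 71 bases before it in the second, chr20:57690687-57690936.
PMEPA1 first window: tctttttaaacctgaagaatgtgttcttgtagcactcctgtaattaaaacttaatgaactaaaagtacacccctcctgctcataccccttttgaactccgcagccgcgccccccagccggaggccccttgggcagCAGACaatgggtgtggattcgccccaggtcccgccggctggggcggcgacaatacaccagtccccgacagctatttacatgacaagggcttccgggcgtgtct
PMEPA1 second window: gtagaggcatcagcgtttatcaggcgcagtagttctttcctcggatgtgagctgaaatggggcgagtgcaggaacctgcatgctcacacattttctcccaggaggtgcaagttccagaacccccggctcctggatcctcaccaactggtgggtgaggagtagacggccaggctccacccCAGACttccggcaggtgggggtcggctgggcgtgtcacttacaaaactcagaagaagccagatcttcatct
CAGAC is short and was found, on either strand, in the 250 bases before 38.0% of the 35116 starts of all genes. Of the 24 genes named below as farthest from their neighbours, 7 have a promoter in the table and 3 of those (PMEPA1, LOC105372621 and LOC101927098) hold it. A gene was counted if any of its starts held the letters, whereas the shares given are per start, so they are not alike. The letters TGACTCA of the AP-1 site, in 4.203% of all promoters, and TATAAA, in 10.7%, were in none of the 7. FPKM values are per gene, so they do not say which start was used. The promoters of CST1, CST2 and APCDD1L are not analysed here.

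Along the chromosome the libraries labelled KO went from above the WT libraries at the start of the short arm to below them at the end of the long arm. Over all 348 genes, 54 rose and 144 fell at a Benjamini-Hochberg adjusted p under 0.05, from limma fitted to log2(FPKM + 1) over all genes tested, which is 56.9% in either direction. Over all genes tested the background was 49.9% called, of which 21.6% of genes were higher and 28.4% lower, and nothing is read from the comparison, because the chromosome was chosen on this contrast. Of the calls, 27.3% on the chromosome and 43.2% over all genes were higher, and with median-of-ratios scaling these shares were 36.6% and 55.2%. Of the 198 calls, 117 held in every alternative that kept a filter and tested the gene, and 81 were lost in at least 1, with 134 left without KO replicate 1 and 134 without KO replicate 2. In all 198 called genes both libraries of 1 group lay beyond both of the other. The share over all genes tested is not given here, so nothing is read from it. The median change was -0.13 on the log2(FPKM + 1) scale against -0.04 over all genes tested. Fewer cells of a type and less RNA per cell cannot be told apart in such bulk libraries. Of all fragments, 3.21% and 3.23% in the WT pair and 2.97% and 2.98% in the pair labelled KO fell on genes of chromosome 20, so the groups did not overlap.

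**Figure D1:**
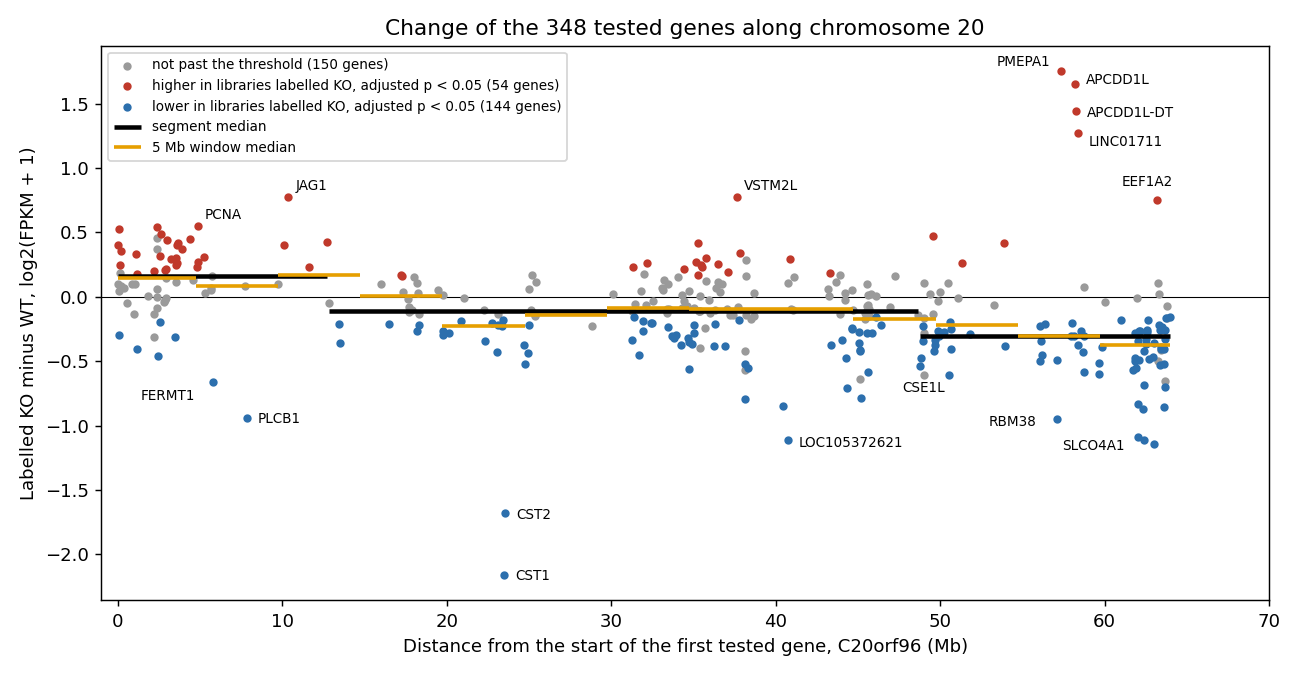
Each point is 1 of the 348 tested genes of chromosome 20, placed by the distance of its start from that of C20orf96 in Mb and by its change, libraries labelled KO minus WT, on the log2(FPKM + 1) scale, with orange lines at the median of each 5 Mb window and black lines at the median of each segment. The medians step from 0.16 in the first segment to -0.11 in the middle and -0.31 in the last, while PMEPA1 and the APCDD1L group stand above 1 and CST1 and CST2 below -1.5.

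In windows of 5 Mb the first 3 windows had medians above 0. From 0 to 5 Mb the median change of 49 genes was 0.15, with 21 higher and 5 lower. From 5 to 10 Mb, 4 of 11 genes rose and 2 fell, with a median of 0.08, and from 10 to 15 Mb, 4 of 8 rose and 2 fell, with a median of 0.17. The next window, 15 to 20 Mb, was near 0, at 0.01 over 16 genes.

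Between 20 and 25 Mb, on the short arm before the centromere, none of 17 genes rose and 13 fell, and the median was -0.23. Among them were the cystatins, FOXA2, a transcription factor of endoderm, which went from 24.4 and 26.9 FPKM to 19.9 and 19.8 FPKM, and APMAP, an adipocyte membrane protein, which went from 64.9 and 63.9 FPKM to 49.4 and 49.5 FPKM. Of the 10 genes from 25 to 30 Mb none rose and 3 fell, with a median of -0.14. Tested genes are sparse there, and the longest stretch without the start of one, 3.41 Mb between ZNF337 and FRG1DP, spans the centromere.

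The proximal long arm from 30 to 45 Mb held smaller medians, of -0.09 over 38 genes, -0.10 over 48 and -0.10 over 23. In the window from 35 to 40 Mb as many genes rose as fell, 10 each. From 45 Mb on the medians went down window by window, to -0.17 over 40 genes, -0.22 over 16, -0.31 over 22 and -0.38 over 50. In the last window, 60 to 65 Mb, 40 of 50 genes fell and 1, EEF1A2, rose, and 94.0% of the genes lay below 0. The longest run of neighbouring tested genes that all fell was 19 genes long, from ADRM1 to MIR4326 over 0.985 Mb, with changes from -1.15 to -0.18. Some of them overlap, such as SLCO4A1 and its antisense genes or ARFGAP1 and MIR4326, so they are not separate measures. MIR4326, the lowest, rests on few fragments, and its call was lost without WT replicate 1 or WT replicate 2. Other calls in the run were lost in some alternatives, that of GID8 in 5. The longest run that all rose was 5 genes, MAVS to PRNP, over 0.840 Mb, with changes from 0.26 to 0.45. In it PANK2 and RNF24 overlap, and the call of MAVS was lost without KO replicate 1.

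**Figure D2:**
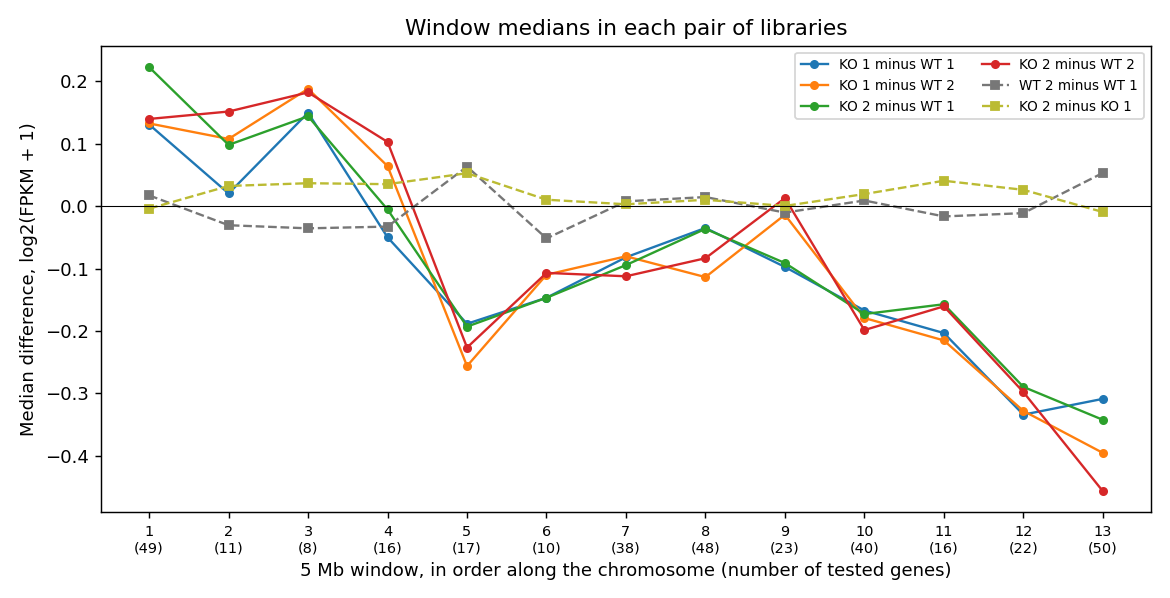
Median difference on the log2(FPKM + 1) scale in each of 13 windows of 5 Mb, in order along the chromosome, for the 4 pairs of a library labelled KO and a WT library (solid lines) and for the 2 pairs within a group (dashed lines). The 4 solid lines lie between 0.020 and 0.223 in the first 3 windows and between -0.457 and -0.309 in the last, while both dashed lines stay between -0.052 and 0.063.

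The pairs of libraries showed the same course. In the last window the medians of the 4 pairs ran from -0.46 to -0.31, while the median of WT replicate 2 minus WT replicate 1 was 0.05 and that of KO replicate 2 minus KO replicate 1 was -0.01. In the first window the 4 pairs ran from 0.13 to 0.22, against 0.02 and -0.004 within the groups. From 15 to 20 Mb the pairs lay on both sides of 0, from -0.05 to 0.10, and from 40 to 45 Mb they ran from -0.10 to 0.01. In the other 11 windows all 4 pairs had the same sign.

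Set beside the rest of the table, the distal windows were among the lowest. Of 406 windows of 5 Mb with at least 10 tested genes over all chromosomes, the median window stood at -0.05 and the range was -0.50 to 0.68. The window from 60 to 65 Mb was the 5th lowest, that from 55 to 60 Mb the 10th, that from 20 to 25 Mb the 24th and that from 50 to 55 Mb the 25th. The window from 0 to 5 Mb was the 67th highest, within the range from -0.24 to 0.37 that held the middle 90% of windows.

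**Figure D3:**
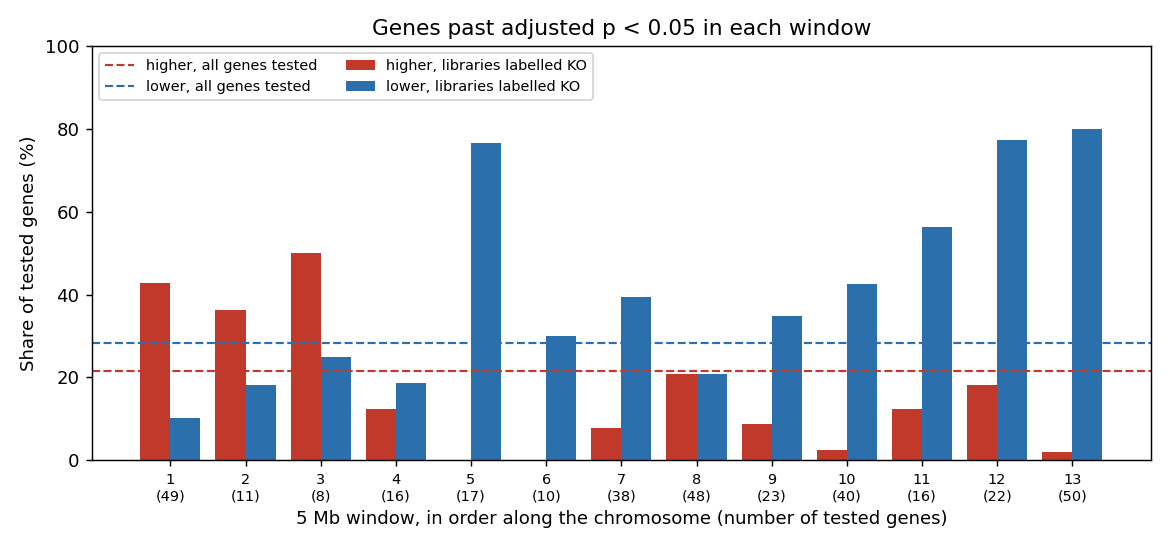
Share of the tested genes of each 5 Mb window that were higher (red bars) or lower (blue bars) in the libraries labelled KO at a limma adjusted p under 0.05, with dashed lines at the shares over all genes tested, 21.6% and 28.4%. The red bars are the taller ones in the first 3 windows, and blue bars reach 76.5% in the fifth window and 80.0% in the last.

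To place the switches, the changes were described by segments of constant level that give the smallest sum of absolute deviations from the segment medians. A first switch lowered this sum by 9.85% of its value with none and the second by 5.63%, whereas one more added 0.928%, under the 5% asked for, so 2 switches and 3 segments were kept. The first segment ran from C20orf96 to SPTLC3 and held 65 genes, the middle one from TASP1 to ARFGEF2 held 181, and the last one from CSE1L to PCMTD2 held 102. The first switch thus lies between 13.01 and 13.10 Mb on the short arm and the second between 48.92 and 49.05 Mb on the long arm. Neither switch sits at the centromere.

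In the first segment the median change was 0.16, a ratio of 1.12 on the scale of FPKM + 1, and 29 genes rose (44.6%) while 7 fell (10.8%). In the middle segment it was -0.11, with 17 higher (9.39%) and 64 lower (35.4%). In the last segment it was -0.31, a ratio of 0.809, with 8 higher (7.84%) and 73 lower (71.6%). The 4 pairs of libraries gave 0.13 to 0.21, -0.12 to -0.10 and -0.33 to -0.28, and did not overlap between segments. The borders were fitted to the changes of these same libraries. The separation of the segments, and the calls beside each switch given below, are therefore description only. Within groups the segment medians stayed between 0.004 and 0.03.

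Shares of fragments, taken from the same values and the same segments, describe the course without a median over genes. The first segment held 0.350% and 0.351% of the fragments of the WT libraries, against 0.408% and 0.411% of those labelled KO, a mean share 16.8% larger. The last segment held 1.08% and 1.12% in the WT libraries and 0.886% and 0.880% in those labelled KO, so that its mean share fell by 19.7%. For the middle segment the shares were 1.76% and 1.75% against 1.66% and 1.68%. The groups did not overlap in any segment, but the borders were fitted to these same libraries, so this is description only.

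The segments also differ in base composition. The median GC content of a gene's longest transcript was 49.6%, 51.1% and 54.5% in the first, middle and last segment, against 48.1% over all genes tested. With smooth trends in GC content and length removed from each library, the segment medians were 0.17, -0.09 and -0.29, close to those without the correction. Protein-coding genes alone gave 0.15, -0.10 and -0.31. The genes were also split by expression level into low, middle and high groups of equal size over the whole table. In that order the first segment's medians were 0.07, 0.18 and 0.25 and the last segment's -0.25, -0.27 and -0.37. Those of the middle segment were -0.13, -0.11 and -0.10, and those of all genes tested -0.02, -0.03 and -0.07.

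**Figure D4:**
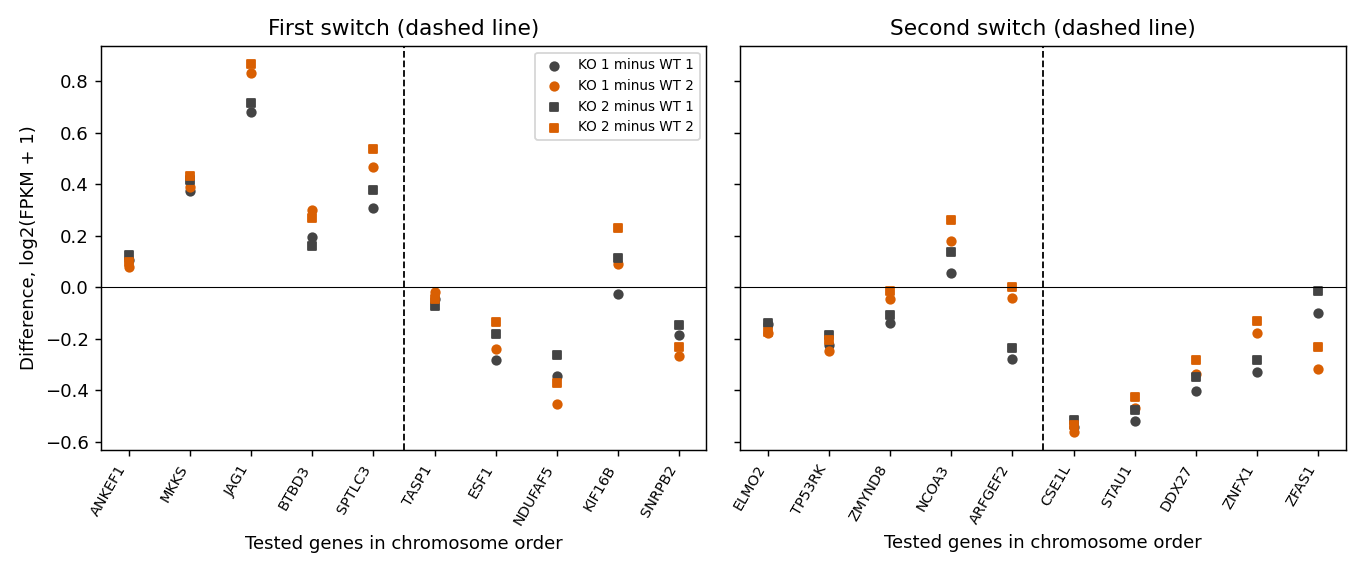
Difference on the log2(FPKM + 1) scale in each of the 4 pairs of a library labelled KO and a WT library, for the 5 tested genes on either side of the first switch (left) and of the second (right), in chromosome order, with the switch as a dashed line. At the first switch all points of the 5 genes before it lie above 0, whereas those after it are mixed. After the second switch CSE1L and STAU1 lie below -0.4 in every pair.

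Of the 5 tested genes before the first switch 4 rose, and of the 5 after it 3 fell. ANKEF1 before it was at 0.10 and KIF16B after it at 0.10, and neither passed. MKKS, a chaperonin-like protein of the basal body, was 0.40 higher, JAG1 0.77, BTBD3, a regulator of dendrite orientation, 0.23 and SPTLC3, a subunit of serine palmitoyltransferase, 0.42, all past the threshold. After it, TASP1, the protease that cleaves the MLL protein, was at -0.05 and did not pass. ESF1, a ribosome biogenesis factor, fell by 0.21, NDUFAF5, an assembly factor of respiratory complex I, fell by 0.36 and SNRPB2, a protein of the U2 snRNP, fell by 0.21. The calls of BTBD3 and SNRPB2 were lost when either library labelled KO was left out and that of ESF1 without KO replicate 1. SPTLC3 and TASP1 overlap each other on the annotation, and a fragment in the shared stretch cannot be assigned without strand.

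Of the 5 tested genes before the second switch 2 fell, and of the 5 after it 4. Before it ELMO2 fell by 0.16 and TP53RK fell by 0.22, both calls being lost when either library labelled KO was left out, while ZMYND8 at -0.08 and NCOA3 at 0.16 did not pass. ARFGEF2, an exchange factor for ARF proteins, was at 21.2 and 17.8 FPKM in the WT libraries and at 17.3 and 17.9 FPKM in those labelled KO. The groups overlapped. Its neighbour CSE1L, the export receptor that recycles importin alpha, was at 166.0 and 167.8 FPKM against 113.4 and 115.6 FPKM, a change of -0.54 ± 0.05 (SE, n = 2 libraries per group). STAU1, an RNA-binding protein of mRNA transport and decay, went from 68.3 and 65.9 FPKM to 47.3 and 48.8 FPKM, the helicase DDX27 fell by 0.34 and ZNFX1, an antiviral RNA sensor, fell by 0.23, while the host RNA ZFAS1 at -0.17 did not pass. The call of ZNFX1 was lost when either library labelled KO was left out.

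The exact positions are loose. Positions from 10.6 Mb (JAG1) to 20.02 Mb for the first switch, and from 44.3 Mb (FITM2) to 59.0 Mb (ATP5F1E) for the second, raised the sum by no more than 1%. In 3 of the 4 pairs of libraries the first switch fell at TASP1, and in KO replicate 2 against WT replicate 2 it fell at 18.6 Mb. The second fell at 48.92, 49.05, 54.2 and 58.7 Mb in the 4 pairs. The rule kept 2 switches in 1 pair and 1 switch in the other 3, and 1 switch when WT replicate 1 or KO replicate 1 was left out. With a single switch over all 4 libraries it lay between SEC23B and SMIM26, at 18.5 to 18.6 Mb.

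Most genes lay near the level of their neighbours, as did most of all genes tested. The local median of a gene is the median change of the other tested genes that start within 2.5 Mb of it, and 346 genes had one. Of these, 69.1% lay within 0.25 of it, against 71.3% of all genes tested. At least 0.5 above it lay 11 genes (3.18%, background 4.03%) and at least 0.5 below it 17 genes (4.91%, background 3.41%). The genes named next are the 12 farthest on each side among those that passed the threshold and whose groups did not overlap. Their distance is thus what chose them, and it is given as a description.

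The largest departure was a group of 4 genes within the distal long arm that was high in the libraries labelled KO among neighbours that were low. PMEPA1, at chr20:57648396-57711472 on the minus strand, stood at 14.2 and 14.6 FPKM in the WT libraries and at 50.7 and 51.1 FPKM in those labelled KO. The groups were far apart, with a mean FPKM 3.54-fold higher and a change of 1.75 ± 0.05 (SE, n = 2 per group) where the local median was -0.32. The 2 promoter windows with CAGAC printed above belong to this gene.

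APCDD1L, which encodes a membrane protein related to an inhibitor of Wnt signaling, lies at chr20:58459101-58515399 on the minus strand. It stood at 3.97 and 3.58 FPKM in the WT libraries and at 14.2 and 13.7 FPKM in those labelled KO, 3.71-fold higher. Its divergent transcript APCDD1L-DT stood at 0.866 and 0.466 FPKM against 3.27 and 3.72 FPKM. LINC01711, a long non-coding RNA just beyond, stood at 1.85 and 1.70 FPKM against 6.47 and 5.00 FPKM. The change was 1.65 for APCDD1L, 1.44 for APCDD1L-DT and 1.27 for LINC01711, with local medians of -0.31. APCDD1L and APCDD1L-DT overlap at their starts, and their reads cannot be told apart there without strand.

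The 3 tested genes between PMEPA1 and APCDD1L fell. PPP4R1L, a pseudogene-like relative of a phosphatase subunit, fell by 0.30, RAB22A, a small GTPase of endosomes, fell by 0.20, and VAPB, a tether of the endoplasmic reticulum, fell by 0.30. Each of these 3 lay within 0.11 of its local median. From PMEPA1 to LINC01711 the table lists 16 genes over 0.986 Mb, of which 7 were tested, 4 higher and 3 lower. The call of RAB22A was lost with median-of-ratios scaling and when either library labelled KO was left out, and that of PPP4R1L without KO replicate 1. Just before PMEPA1, RBM38, an RNA-binding protein induced by p53, went from 9.72 and 11.5 FPKM to 5.30 and 4.71 FPKM, and just after LINC01711, STX16, a syntaxin of the trans-Golgi network, fell by 0.37.

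**Figure D5:**
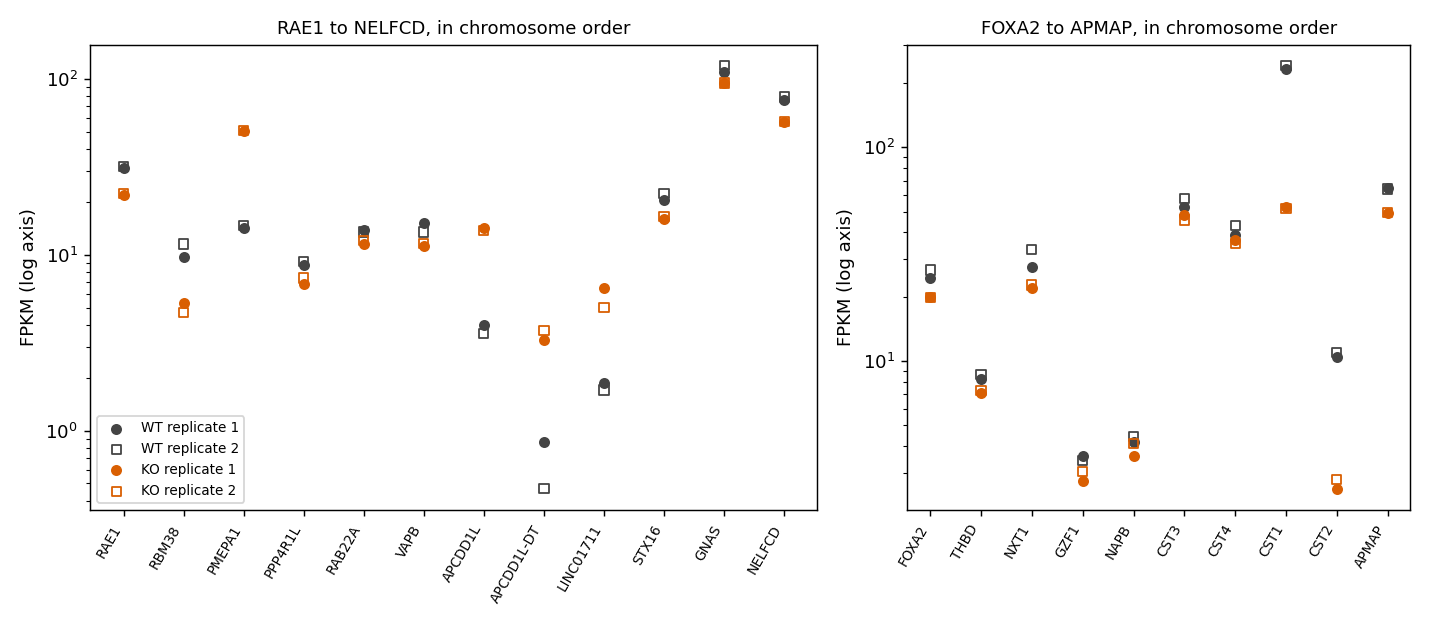
FPKM in each library on a log axis for the tested genes from RAE1 to NELFCD (left) and from FOXA2 to APMAP (right), in chromosome order, with filled circles for replicate 1 and open squares for replicate 2, dark for WT and orange for libraries labelled KO. On the left PMEPA1, APCDD1L, APCDD1L-DT and LINC01711 are the genes with orange above dark, and on the right the gap is widest at CST1, with 232 and 241 FPKM against 52.5 and 51.7 FPKM, and at CST2.

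Other genes above their neighbourhood lay apart from each other. EEF1A2, the tissue-restricted form of translation elongation factor 1A, stood at 14.6 and 15.4 FPKM in the WT libraries and at 26.9 and 24.998 FPKM in those labelled KO, with a change of 0.75 where the local median was -0.39. Its sequence is close to that of EEF1A1, and how shared fragments were assigned is not known here. CYP24A1, the hydroxylase that inactivates vitamin D, stood at 1.32 and 1.12 FPKM against 2.02 and 1.92 FPKM, with a change of 0.42 and a local median of -0.31. ATP9A, a flippase of endosomes, was at 2.70 and 2.18 FPKM against 2.997 and 3.23 FPKM, and its call was lost without WT replicate 2 and when either library labelled KO was left out. Groups that do not overlap were asked for by the rule that named these 3 genes.

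On the proximal long arm, VSTM2L, a secreted antagonist of humanin, stood at 4.497 and 5.13 FPKM against 9.525 and 8.37 FPKM, a change of 0.77 with a local median of -0.10. FER1L4, a pseudogene that is transcribed into a long RNA, stood at 0.982 and 1.05 FPKM against 1.69 and 1.68 FPKM. On the short arm JAG1, which activates Notch receptors on neighbouring cells, stood at 39.4 and 35.4 FPKM against 63.9 and 65.4 FPKM. Its neighbours were high as well, with a local median of 0.23 from 5 genes, and its change of 0.77 lay 0.54 above that. MIR12122, a precursor of 95 bases inside SLC9A8, also qualified, with 5 and 3 fragments in the WT libraries against 9 and 12, and its call was lost with voom. Its fragments cannot be told from those of its host.

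The 2 tested genes of the chromosome with the lowest changes were cystatins. CST1, which encodes cystatin SN, lies at chr20:23747562-23750935 on the minus strand and stood at 232 and 241 FPKM in the WT libraries and at 52.5 and 51.7 FPKM in those labelled KO. The mean FPKM was 4.54-fold lower, a change of -2.16 ± 0.05 (SE, n = 2 per group) where the local median was -0.19. CST2, cystatin SA, at chr20:23823769-23826729, stood at 10.505 and 11.02 FPKM against 2.53 and 2.80 FPKM, 4.04-fold lower, with a change of -1.68.

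Their relatives CST3 and CST4 changed far less. CST3, cystatin C, a housekeeping inhibitor made by most cells, stood at 52.4 and 57.6 FPKM against 48.0 and 45.7 FPKM, and CST4, cystatin S, at 39.1 and 43.2 FPKM against 37.0 and 35.4 FPKM. Their changes were -0.23 (limma adjusted p = 0.0175) and -0.18 (limma adjusted p = 0.0430), within 0.04 of their local medians of -0.19 and -0.21. Both calls were lost with median-of-ratios scaling and when either library labelled KO was left out, and that of CST4 in 8 alternatives in all. CST1, CST2 and CST4 are close relatives, a fragment from a shared stretch can map to more than 1 of them, and the authors' handling of such fragments is not given in the sources used here. Of the 11 members of the cystatin list in the table, 4 were tested, and all 4 fell. The 4 lie within 0.197 Mb, so they share their neighbourhood.

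On the short arm PLCB1 and FERMT1 fell where the local medians were above 0. PLCB1, a phospholipase C that signals downstream of G proteins, stood at 3.78 and 3.23 FPKM in the WT libraries and at 1.22 and 1.48 FPKM in those labelled KO, a change of -0.94 with a local median of 0.08. FERMT1, kindlin-1, an activator of integrins in epithelial cells, stood at 5.89 and 5.76 FPKM against 3.35 and 3.29 FPKM, a change of -0.66 with a local median of 0.24. EBF4, a transcription factor of the early B-cell factor family, stood at 1.63 and 1.87 FPKM against 1.03 and 0.957 FPKM. PLCB4, the next phospholipase of that family along the chromosome, was under the filter and was chosen after its values were seen. It had 830 and 416 fragments (1.71 and 1.72 FPKM) in the WT libraries and 29 and 24 fragments (0.0553 and 0.0428 FPKM) in those labelled KO, with no test.

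Distal on the long arm lay a further low group. SLCO4A1, an organic anion transporter that carries thyroid hormone, stood at 20.7 and 22.6 FPKM against 9.46 and 9.51 FPKM, a change of -1.11 with a local median of -0.36. LINC02970 beside it fell by 0.87, and SLCO4A1-AS1 and SLCO4A1-AS2, which overlap SLCO4A1, fell by 0.68 and 0.42. The 4 span 0.0617 Mb, and without strand the antisense values cannot be separated from those of SLCO4A1. A gene with no symbol, Entrez ID 105372707, fell by 1.09 and overlaps ADRM1, a ubiquitin receptor of the proteasome, which fell by 0.83.

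LOC105372621 and LOC101927098, a pair of uncharacterised genes 0.299 Mb apart on the proximal long arm, went from 36.7 and 38.4 FPKM to 17.9 and 15.9 FPKM and from 4.26 and 4.59 FPKM to 2.01 and 2.003 FPKM. Their changes were -1.11 and -0.85 where the local medians were -0.10 and -0.14. WFDC2, the secreted protein HE4, a serum marker of ovarian cancer, stood at 2.69 and 2.04 FPKM against 0.904 and 0.981 FPKM, a change of -0.79. SNORA71C, a small nucleolar RNA inside SNHG17, stood at 22.1 and 17.4 FPKM against 12.04 and 9.86 FPKM, a call that was lost with trends in GC content and length removed (limma adjusted p = 0.0644). SNHG17 itself went from a mean of 27.4 FPKM to 18.8 FPKM, and fragments of SNORA71C cannot be told from those of this host. MIR4326, a precursor of 59 bases inside ARFGAP1, had 10 and 4 fragments in the WT libraries against 2 and 4, and its call was lost without WT replicate 1 or WT replicate 2. ARFGAP1 fell by 0.36, and fragments of MIR4326 cannot be told from those of this host.

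Gene groups were read the same way, as counts beside the background of 21.6% higher and 28.4% lower. Over the tested genes of the chromosome these shares were 15.5% and 41.4%, so a list with more falls than rises is not set apart by that. In the list of genes of the 20q13 region that is gained in breast tumours, 16 of 19 were tested, 2 rose and 11 fell, with a median of -0.25. The 2 that rose were PMEPA1 and CYP24A1. The falls included CSE1L, RAE1, a nuclear pore and mitotic factor that went from 31.3 and 31.9 FPKM to 21.99 and 22.4 FPKM, AURKA, the mitotic kinase, at 76.6 and 76.2 FPKM against 64.2 and 66.5 FPKM, and BCAS4, at 3.61 and 4.16 FPKM against 2.32 and 2.09 FPKM. ZNF217, a repressor often named as a driver of that region, was at 13.8 and 13.8 FPKM against 13.04 and 13.3 FPKM and did not pass. The call of AURKA was lost when either library labelled KO was left out. The median of the list's distances from the local medians was -0.01, and 13 of the 16 lie in the last segment.

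Of the 20q11 genes of the same kind, 15 of 16 were tested, 1 rose and 6 fell, with a median of -0.06. ID1, an inhibitor of helix-loop-helix factors induced by BMP signals, rose from 103.5 and 122 FPKM to 132 and 132.1 FPKM, a call that was lost without KO replicate 1, KO replicate 2 or WT replicate 1. RALY, an RNA-binding protein, fell by 0.30, and BCL2L1, the survival factor BCL-XL, fell by 0.16, a call that was lost in 7 alternatives. TPX2, the activator of AURKA, was at -0.05 and E2F1, the factor of S-phase entry, at -0.09, and neither passed.

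Cell division genes went both ways. Of 20 on the list, all were tested, 4 rose and 6 fell. PCNA rose from 101 and 98.2 FPKM to 142 and 151 FPKM, CENPB, a protein of centromeric repeats, rose by 0.31 and CDC25B, a phosphatase that activates cyclin-dependent kinases, rose by 0.24, and these 3 lie in the first segment. In the other segments MYBL2, a transcription factor of the cell cycle, fell by 0.37 and UBE2C, the ubiquitin-conjugating enzyme of the anaphase-promoting complex, fell by 0.28. DSN1, a kinetochore protein, rose by 0.26 in the middle segment. Calls of CENPB and CDC25B were lost without KO replicate 1, and those of UBE2C and DSN1 without KO replicate 2.

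Of 25 RNA processing and ribosome genes tested, 2 were higher and 14 lower, with a median of -0.21. The median of their distances from the local medians was -0.13. By segment, 3 lie in the first, 13 in the middle and 9 in the last. RPS21, a protein of the small ribosomal subunit, went from 257 and 273 FPKM to 187 and 189 FPKM, YTHDF1, a reader of methylated adenosine, fell by 0.46 and EIF6, which keeps ribosomal subunits apart, fell by 0.22. SNRPB, a core protein of the spliceosome, was at 231 and 269 FPKM against 237 and 217 FPKM, and the groups overlapped (limma adjusted p = 0.210). The transcription and chromatin list had 33 of 45 tested, 2 higher and 17 lower. Among the falls was TAF4, a subunit of TFIID, at 12.9 and 11.7 FPKM against 7.86 and 8.09 FPKM. For that list the median distance from the local medians was 0.05, and 1, 19 and 13 members lie in the first, middle and last segment.

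For TGF-beta and BMP signaling, 5 of 8 were tested and the members went both ways. The receptor-binding protein FKBP1A rose from 99.0 and 109 FPKM to 131 and 132 FPKM, ID1 and PMEPA1 rose as given above, and the repressors TGIF2 and SNAI1 fell by 0.21 and 0.37. The call of TGIF2 was lost when either library labelled KO was left out. The ligand BMP2 was under the filter, at 0.930 and 0.602 FPKM against 0.266 and 0.308 FPKM, and it has no test.

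Among ubiquitin and proteasome genes 4 of 9 tested rose and 3 fell, and the 4 that rose lie in the first segment. They were RBCK1 with 0.25, NSFL1C with 0.18, UBOX5 with 0.21 and RNF24 with 0.42. The calls of RBCK1, NSFL1C and UBOX5 were lost when either library labelled KO was left out, and that of NSFL1C also with the replicate block. PSMA7, a ring subunit of the proteasome, went from 389 and 402 FPKM to 278 and 282 FPKM. It is the gene with the highest mean FPKM of the chromosome. Membrane traffic genes had 2 higher and 7 lower of 19, with VPS16, a subunit of the HOPS tether, higher by 0.31 and DNAJC5, the cysteine string protein, lower at 26.3 and 25.02 FPKM against 37.3 and 37.3 FPKM in WT. Of 14 mitochondrial genes 1 rose and 7 fell, with PANK2, of coenzyme A synthesis, higher by 0.41 and PRELID3B, a lipid transfer protein, going from 40.8 and 45.2 FPKM to 28.4 and 28.2 FPKM.

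Genes of secreted and matrix proteins had 3 higher and 7 lower of 12 tested. The 3 were JAG1, VSTM2L and TGM2, a transglutaminase that crosslinks matrix proteins, with 0.34. The falls included LAMA5, a laminin chain, at 93.3 and 99.7 FPKM against 79.3 and 72.4 FPKM, and PLTP, the phospholipid transfer protein, with -0.58. CTSZ, a lysosomal protease, was at 193 and 188 FPKM against 202 and 199.9 FPKM and did not pass (limma adjusted p = 0.224). Kinases and phosphatases had 3 higher (PTPRA, CDC25B and SRC) and 5 lower of 13, and of the 6 glycosylation genes 4 fell, PIGT of the GPI transamidase by 0.41 among them. The call of SRC was lost with the replicate block and when either library labelled KO was left out. For apoptosis and stress genes the counts were 2 higher, PRNP with 0.45 among them, and 3 lower of 8. VPS16 overlaps PTPRA, and PANK2 overlaps RNF24, and how fragments of the shared stretches were assigned is not known here. The imprinted list had 2 lower of 4, MCTS2, a copy of MCTS1 that lies within HM13, and GNAS, the stimulatory G protein subunit, which fell by 0.27. In the WFDC list 1 of 3 tested fell, WFDC2, and in the BPIF list PLTP was the 1 gene tested.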

How the data were processed

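RNA of 4 libraries of MDA-MB-231 cells was measured, 2 WT and 2 labelled KO by their titles. The authors deposited FPKM values for 39259 genes by Entrez ID with exon coordinates, per the file headers; STAR, Subread and DESeq2 stand in the submitters' processing notes, without versions or roles. The build, and whether strand was used, is not given in the sources used here. RefSeq symbols on GRCh38.p14 matched 95.8% of the chromosome 20 genes, of which 98.8% had a start or end within 1000 bp of that assembly. Multiplying FPKM by length gave back whole fragments (tolerance 0.001), which gave the depth. In WT replicate 2, the shallowest library, 3 fragments on a gene of 1 kb are 0.133 FPKM, against 0.0575 to 0.0664 FPKM in the others.

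The test was limma (3.58.1, R 4.3.3) with a trended and robust prior, on log2(FPKM + 1), for genes whose mean reached 1 FPKM, KO minus WT, with Benjamini-Hochberg adjustment over all of them and a threshold of 0.05. This scale understates the change of low genes. Segments held at least 10 genes, with at most 5 switches. Local medians needed at least 5 neighbours. The text names RIOX2, the 12 called genes farthest above and below their local median, 5 genes on each side of each switch, the largest called member of each list in each direction, the 5 highest genes and the 3 on each side of the filter, and some others given as values after they were seen. The genes farthest from their local medians also had to have groups that do not overlap. The chromosome, its members, the lists and the rules were chosen with earlier results of these data known. The steps were tested on simulated data. The replicate numbers were not treated as pairs: across genes, WT replicate 2 minus 1 and KO replicate 2 minus 1 had a correlation of -0.22. Coding sequences of the cystatin genes are not reported here.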

Additional observations from a re-analysis of the deposited data

How the results depend on the processing

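With the filter kept, voom on the computed fragments called 62 higher and 151 lower, and 55.4% of all genes tested. The 2 counts depended most on the filter. With no filter, limma called 0 genes of the chromosome higher and 2 lower (27 and 55 of 1039 at an unadjusted p under 0.05), and 0.1605% of all genes. No switch was then kept by the rule, 2 forced ones lay at 63.7 and 63.9 Mb, and the medians were 0, 0 and -0.0053. Leaving out 1 library gave 33 to 72 higher and 102 to 166 lower. The 33 came without KO replicate 2, against 34 without KO replicate 1, and each of these fits still called 134 of the 198 genes. The share called over all genes tested moved the same way, down without a library labelled KO and up without a WT library. With 1 library left out the switches ranged from 13.1 to 18.6 Mb and from 48.9 to 58.7 Mb. The medians ranged from 0.157 to 0.180, -0.120 to -0.0961 and -0.334 to -0.290. Squared deviations put the second switch at 59.0 Mb, with 3 switches by the rule.

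Segment medians kept their sign in every filtered alternative. In the order first, middle and last they were 0.215, -0.0494 and -0.251 with median-of-ratios scaling, which moved the share of calls that were higher from 43.2% to 55.2% over all genes and from 27.3% to 36.6% on the chromosome. A pseudocount of 0.1 gave 0.185, -0.119 and -0.345, and voom 0.197, -0.121 and -0.344. They were 0.201, -0.0693 and -0.265 with the median of all genes subtracted. A filter at 5 FPKM gave 0.220 for the first and -0.336 for the last, quantile normalization 0.194 for the first and -0.0919 for the middle, and trends with GC content and length removed, chosen after seeing the data, -0.0924 for the middle. The cause of these moves was not tested. With the replicate block 49 genes were higher and 136 lower, and 45.9% of all genes tested were called. A crossed replicate block, added after seeing the data, gave 64 and 160, with 56.8% of all genes called. The call of SNORA71C was lost with the crossed block. Over the 65 named genes and their alternatives, 774 of 883 values kept direction and call, 90 lost the call and 19 gained it, and none reversed. Beyond the losses given beside the genes, median-of-ratios scaling ended the calls of EIF6, ELMO2, ESF1, SNRPB2 and ZNFX1, quantile normalization those of ELMO2, SNRPB2 and ZNFX1, the replicate block that of ELMO2, limma without trend and robust that of ID1, and leaving out a library labelled KO that of EIF6 (either library) and leaving out WT replicate 2 that of ELMO2. With neighbours within 5 Mb all 24 genes stayed on their side of the local median, moving by at most 0.158.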

Other observations

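Some genes under the filter of 1 FPKM also differed between the groups and are given as values, with no test and chosen after they were seen. SYCP2, a protein of the meiotic synaptonemal complex, stood at 0.687 and 0.808 FPKM in the WT libraries and at 0.1505 and 0.211 FPKM in those labelled KO. RASSF2, a RAS-association protein, stood at 0.629 and 0.510 FPKM against 0.158 and 0.194 FPKM. SLC2A10, a glucose transporter family member, was higher in the libraries labelled KO, at 0.583 and 0.600 FPKM against 0.199 and 0.166 FPKM. NKILA, a long non-coding RNA whose start lies within the span of PMEPA1, stood at 0.639 and 0.479 FPKM against 1.02 and 1.04 FPKM. It had 75 and 28 fragments against 129 and 141, and without strand they cannot be separated from those of PMEPA1 where the genes overlap. SLX4IP, next to JAG1 on the short arm, stood at 0.699 and 0.647 FPKM against 1.08 and 1.10 FPKM. In each of these 5 genes the groups did not overlap.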
